A study of Arabidopsis thaliana with 66 samples.

Results

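MGH3 (AT1G19890) is the Arabidopsis thaliana gene for the histone H3 variant of the male germline, and its transcript level was followed through 22 groups of flower, floral organ, mutant flower and pollen arrays. The gene was found through the array annotation: 1 of the 22810 probe sets on the ATH1 array pairs with MGH3, and that probe set pairs with no other gene. It was therefore 1 gene of the 13286 that had a probe set of their own in the annotation used here.

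Histone H3 is one of the core proteins around which nuclear DNA is wrapped, and plants replace part of their ordinary H3 with variants in particular cells. In a pollen grain a large vegetative cell, which grows the pollen tube, encloses the male germline: a generative cell that divides into a pair of sperm cells. MGH3, also known as HTR10, is known as an H3 variant made in generative and sperm cells, and its gene is a known target of the germline transcription factor DUO1. In wild-type flowers these cells form in the anthers of the stamens, so whole flowers and stamens mix them with many other cells. Whether the probes for MGH3 also detect other H3 transcripts was not tested.

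The samples were 66 single-colour arrays hybridised with total RNA, 3 arrays for each of 22 groups. Mature pollen came from Col-0 plants. The stage 12 organs (stamens, sepals, petals and carpels) and the stage 15 organs (stamens, sepals, petals, carpels and pedicels) were dissected from Col-0 flowers, and whole Col-0 flowers were taken at stages 9, 10/11, 12 and 15. Stage 12 is the last bud stage before opening and stage 15 is an open flower.

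The mutant flowers were staged as equivalent to stage 12 and all were in the Col-0 background, with 1 allele of each gene. According to the labels, clv3-7 flowers had extra carpels and organs, lfy-12 flowers were turned into leaf-like structures, and ufo-1 flowers had filamentous organs in the second and the third whorls. Sepals were missing from ap1-15 flowers, which bore secondary flowers in place of petals, while ap2-6 flowers had neither sepals nor petals. Petals and stamens were missing from ap3-6 flowers, and ag-12 flowers lacked stamens and carpels. Plants of these groups grew on soil in continuous light at 23 °C. The remaining group held Col-0 flowers whose stage is not stated, grown at 20 °C under a long-day photoperiod. It was left out of the tests, because stage, photoperiod and temperature differed together. The labels do not say how many plants were pooled for an array or whether the 3 arrays of a group came from separate plants, so the p-values measure the spread between arrays only.

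Values are MAS5 signals, a linear brightness that appears scaled array by array. A signal below 22.6, the level under which 40% of all values lay, was taken as below the floor, and values below it have no order. Pollen stood apart from the other groups. Of all probe sets, 52.5% ± 0.808 (SD, n = 3) were above the floor in pollen, against 55.1% to 64.0% in the other groups. Its least similar pair of arrays correlated at r = 0.959, against at least 0.986 elsewhere, and its 75th percentile of signal was 63.1, against 115.0 to 133.3 elsewhere.

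The MGH3 signal was highest in pollen, high in stamens and low or below the floor in the rest of the flower. In pollen it read 1114.7, 919.3 and 754.9 on the 3 arrays (929.6 ± 180.1, mean ± SD, n = 3 here and for every group below). In stage 12 stamens it read 592.0, 528.6 and 583.1 (567.9 ± 34.3), and in stage 15 stamens 143.3, 113.8 and 97.9 (118.3 ± 23.0). These 3 groups did not overlap with each other or with any other group. The next level was that of whole flowers at stage 12: clv3-7 flowers read 67.2, 89.2 and 70.0 (75.5 ± 12.0) and wild-type stage 12 flowers 59.1, 72.1 and 78.1 (69.8 ± 9.74), and those arrays overlapped.

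Below these 5 groups, whose arrays were all above the floor, lay 4 groups that straddled it. Long-day flowers read 21.2, 24.5 and 22.6 (22.8 ± 1.62), with 2 of 3 arrays above the floor. The remaining 3 had 1 array of 3 above it: ap1-15 flowers at 20.9 ± 2.16, ap2-6 flowers at 20.7 ± 5.87 and stage 15 flowers at 18.3 ± 4.998. Each of these 4 groups overlapped with the next in the order. MGH3 was below the floor on every array of the other 13 groups, which were the stage 9 and 10/11 flowers, the sepals, petals, carpels and pedicels, and the lfy-12, ap3-6, ag-12 and ufo-1 flowers. In all, 20 of the 66 arrays gave an MGH3 signal above the floor.

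**Figure D1:**
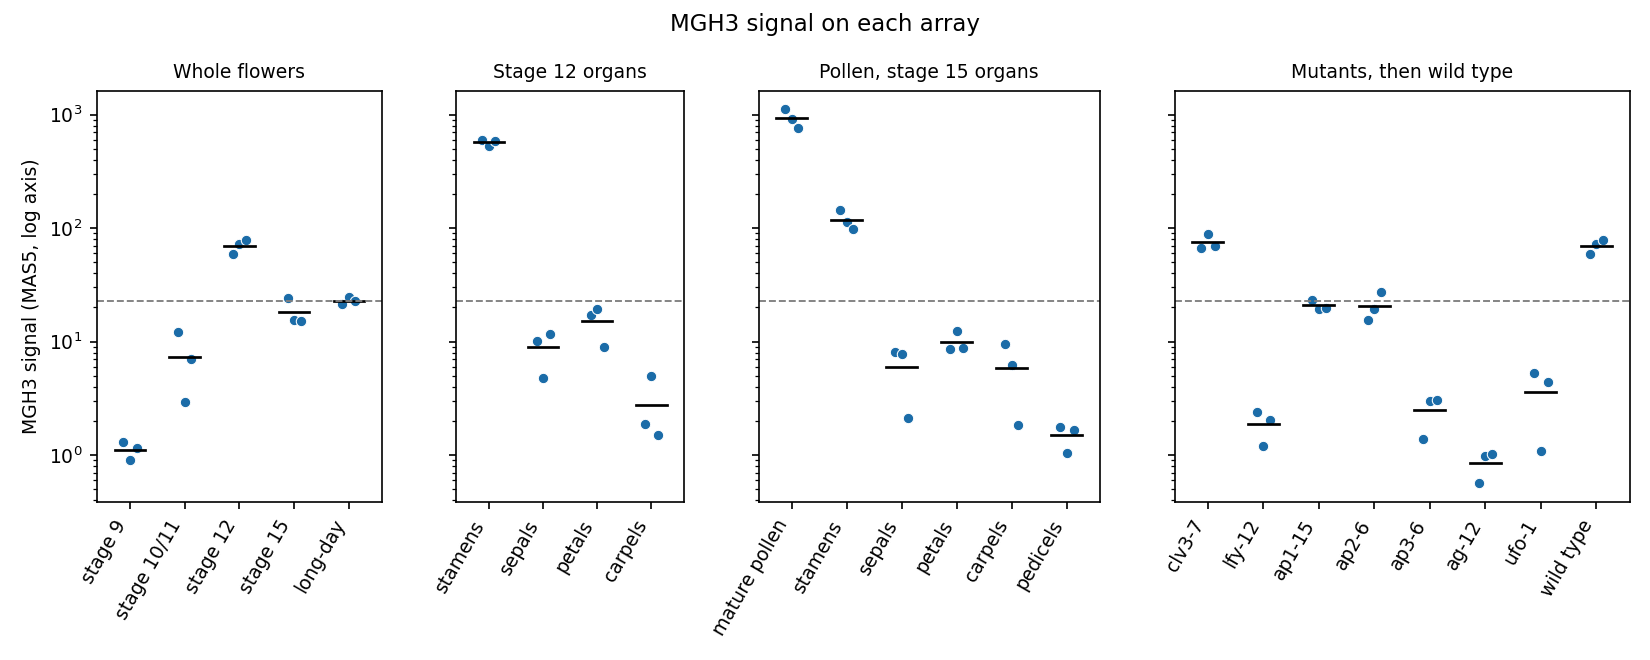
MGH3 signal (MAS5 signal, log axis) on each of the 66 arrays, with whole flowers by stage, stage 12 organs, mature pollen with the stage 15 organs, and mutant flowers followed by wild-type stage 12 flowers; points are arrays, bars are means of 3 arrays and the dashed line is the floor of 22.6. Pollen and the stamens of both stages stand above every other organ, and lfy-12, ap3-6, ag-12 and ufo-1 flowers lie below the floor.

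Among the organs of stage 12 flowers, MGH3 was a stamen transcript. It averaged 567.9 in stamens, while sepals read 10.2, 4.78 and 11.7, petals 17.1, 19.5 and 8.90, and carpels 1.89, 4.95 and 1.49, all below the floor. Set against the floor, the stamen level was at least 25.1-fold higher than in any of these 3 organs. These bounds divide the geometric mean of the group above the floor by the floor, here and below. On the log2(signal + 11.3) scale the differences were 4.86 against sepals, 4.47 against petals and 5.37 against carpels (SE 0.17 in this and every MGH3 comparison below). In the limma fit over all arrays, with adjustment over the 17646 probe sets tested, the adjusted p-values were 2.89e-33, 2.46e-31 and 2.45e-35. A probe set is called here when its adjusted p is below 0.05 and the change on that scale is at least 2-fold. Calls higher in stage 12 stamens made up 14.4% of all probe sets tested against sepals, 13.5% against petals and 14.6% against carpels, so a call by itself was common in stamens.

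At stage 15 the same contrast held at a lower stamen level. Stamens averaged 118.3, and sepals, petals, carpels and pedicels ranged between 1.05 and 12.3, all below the floor, which gave at least a 5.17-fold difference. The log2 differences were 2.91 against sepals (adjusted p = 1.31e-22), 2.60 against petals (3.90e-20), 2.93 against carpels (6.03e-23) and 3.33 against pedicels (1.81e-25). The share of probe sets called higher in stage 15 stamens was 12.2%, 7.1%, 15% and 15.2% in those comparisons. In samples of whole organs, fewer cells of a type and less RNA per cell cannot be told apart, and this holds for every MGH3 difference given here.

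Dissected stamens carried more MGH3 signal than the whole flower of their own stage. At stage 12 the stamens averaged 567.9, against 69.8 in whole flowers, a ratio of 8.14 between the mean signals, with a log2 difference of 2.84 (adjusted p = 3.75e-22, 11.5% of probe sets called higher). At stage 15 the stamens averaged 118.3, against 18.3 in whole flowers, a ratio of 6.48 that rests on a whole-flower level around the floor, with a log2 difference of 2.13 (adjusted p = 7.89e-17, 7.69% called higher).

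Through flower development MGH3 appeared late and was low again in the open flower. Stage 9 flowers read 1.29, 0.896 and 1.14, and stage 10/11 flowers 12.0, 2.94 and 7.04. Both stages were below the floor, so no order is given to them, and the difference of 0.56 on the log2 scale stayed under the 2-fold limit (adjusted p = 0.00873, 2.01% of probe sets called higher). Stage 12 flowers, at 59.1 to 78.1, were at least 3.06-fold above stage 10/11 flowers, with a log2 difference of 2.14 (adjusted p = 2.82e-16). At this step 4.9% of the probe sets tested were called higher. The 3 stage 12 arrays did not overlap with those of any other stage. In stage 15 flowers, at 24.0, 15.5 and 15.3, MGH3 was lower than at stage 12 by -1.46 on the log2 scale (adjusted p = 7.61e-11, 4.69% called lower). The arrays of stages 9 and 10/11 carry another set of replicate names than those of stage 12, and that difference between the array sets cannot be told apart from stage.

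The fall toward stage 15 was measured in the stamens themselves. Stage 15 stamens averaged 118.3 and stage 12 stamens 567.9, a log2 difference of -2.17 (adjusted p = 3.04e-17), and the arrays did not overlap. Calls in either direction were common between these stamens, with 12% of probe sets called lower and 12% called higher. In sepals, petals and carpels MGH3 was below the floor at both stages and no comparison of stages was called. The log2 differences there were -0.23 in sepals, -0.30 in petals and 0.27 in carpels, with adjusted p-values of 0.258, 0.108 and 0.246, and 16.8%, 25.3% and 4.54% of probe sets were called in either direction.

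Mature pollen carried more MGH3 signal than stage 15 stamens, by a log2 difference of 2.86 (adjusted p = 1.04e-22), with pollen arrays at 754.9 to 1114.7 and stamen arrays at 97.9 to 143.3. Of all probe sets, 18.8% were called higher and 30.5% lower in pollen. Against stage 12 stamens the pollen arrays were again all higher, but the difference of 0.68 on the log2 scale (adjusted p = 0.000251) did not reach 2-fold, and the ratio of the mean signals was 1.64. There, 14.3% of probe sets were called higher and 30% lower. The size of this difference follows the scaling of the pollen arrays. It was 1.54 (adjusted p = 4.28e-12, now called) when each array was divided by its 75th percentile, and 0.27 (adjusted p = 0.158) after quantile normalization. Those scalings moved the median of all probe sets in pollen by 0.77 and 0.38 on the log2 scale. The sign of the MGH3 difference was the same in all of these scalings, and its size was not. Under the same scalings 66.0% and 47.9% of the calls between pollen and stage 12 stamens were higher, against 32.2% in the deposited scaling. The corresponding shares against stage 15 stamens were 64.2% and 50.5%, against 38.1%. MGH3 remained called higher in pollen than in stage 15 stamens in every setting tried, with log2 differences of 2.22 to 3.72.

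In 6 of the 7 floral mutants MGH3 was lower than in wild-type stage 12 flowers. The lfy-12 flowers read 2.38, 1.21 and 2.02, the ap3-6 flowers 1.37, 3.01 and 3.04, the ag-12 flowers 0.565, 0.988 and 1.02, and the ufo-1 flowers 5.29, 1.09 and 4.43. Wild-type stage 12 flowers read 59.1, 72.1 and 78.1, and each of these 4 mutants, below the floor on every array, was at least 3.06-fold lower. LFY and UFO act together upstream of the organ identity genes, AP3 is required for petals and stamens, and AG for stamens and carpels. The log2 difference from wild type was -2.62 for lfy-12 (adjusted p = 4.81e-20), -2.55 for ap3-6 (1.75e-19), -2.73 for ag-12 (9.99e-21) and -2.45 for ufo-1 flowers (1.88e-18). Of all probe sets, 7.35%, 6.21%, 6.02% and 4.24% were called lower in these mutants.

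The ap1-15 and ap2-6 flowers, whose labels mention no loss of stamens, held an intermediate level around the floor. MGH3 read 23.4, 19.4 and 19.9 in ap1-15 flowers, a log2 difference of -1.33 from wild type (adjusted p = 2.90e-09, 3.51% of probe sets called lower). It read 15.5, 19.5 and 27.1 in ap2-6 flowers, a log2 difference of -1.35 (adjusted p = 1.74e-09, 4.97% called lower). Neither mutant overlapped with wild type. AP1 and AP2 act in the identity of the outer organs of the flower.

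In clv3-7 flowers, which lack a signal that limits the size of the stem cell pool, MGH3 was close to wild type. It read 67.2, 89.2 and 70.0, against 59.1, 72.1 and 78.1 in wild-type flowers, and the log2 difference was 0.10 (adjusted p = 0.806). It took either sign when single arrays were left out, from -0.01 to 0.17. Only 0.425% of probe sets were called higher and 0.272% lower in clv3-7, so few genes of any kind separated these flowers from wild type.

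Compared directly, the ap1-15 and ap2-6 flowers lay above the stamenless ap3-6 flowers. The log2 differences were 1.22 (adjusted p = 2.24e-08, 4.64% of probe sets called higher) and 1.20 (4.92e-08, 2.98% called higher). These calls rest on signals at the floor against signals below it. They fell to 0.79 and 0.78 with the pseudocount equal to the floor and to 0.95 and 0.99 after quantile normalization, below the 2-fold limit. The ag-12, lfy-12 and ufo-1 flowers were below the floor like ap3-6 flowers, and none of these 3 comparisons was called (log2 differences -0.18, -0.06 and 0.10, adjusted p-values 0.490, 0.833 and 0.726, with 3.11%, 3.89% and 2.62% of probe sets called in either direction). The comparisons of 7 mutants with wild type share the same 3 wild-type arrays.

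Markers of other floral cell types were read beside these MGH3 levels. The tapetum, the anther layer that feeds the developing pollen, had 4 genes of 19 listed with a probe set of their own, and the sum of their signals was 3004 to 3150 in ap1-15, 1910 to 1953 in ap2-6 and 1644 to 1862 in clv3-7 flowers, against 968 to 1025 in wild-type stage 12 flowers. ATA27, a gene of this list, alone read 888.6, 949.4 and 949.2 in wild-type stage 12 flowers, so it made up most of the wild-type sum. All 4 were called higher in ap1-15 (2.06% of probe sets), 2 in ap2-6 (1.46%) and 2 in clv3-7 (0.425%). In the ap1-15 flowers, whose MGH3 was lower than in wild type, SHT, an enzyme of spermidine conjugates in the pollen coat, averaged 449.3, against 34.9 in wild type (log2 difference 3.32). The count of 4 was 2 in the least permissive setting. These 4 genes gave 3862 to 3998 in stage 10/11 flowers, so the list was high where MGH3 was below the floor. In ap3-6 and ag-12 flowers the sums were 9.22 to 12.8 and 2.25 to 11.4, and none of the 4 was above the floor on every array. In lfy-12 and ufo-1 flowers, where MGH3 was also below the floor, the sums were 328 to 357 and 829 to 866, with 4 and 3 of the 4 genes above the floor on every array. The part of flower age in the mutant differences was not tested.

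Stamen and pollen samples carried the marker genes their labels imply. All 9 measured genes of the vegetative cell and pollen tube list were above the floor on every array of pollen and of both stamen groups, and their summed signal was 30443 to 33788 in pollen, 4929 to 5249 in stage 15 stamens and 6785 to 7161 in stage 12 stamens. ANX1, a gene of this list, passed the filter on low values only through these groups. Of the tapetum list, 0 of 4 were above the floor on every array in pollen and in stage 15 stamens, with sums of 26.7 to 38.0 and 8.37 to 28.2, and 2 of 4 in stage 12 stamens. The carpel genes INO, SPT and CES summed to 48.8 to 72.0 in stage 12 stamens, against 1006 to 1106 in stage 12 carpels. SPT was above the floor on every array of pollen and of both stamen groups, at 37.3, 39.6 and 51.5 in stage 12 stamens. INO was below the floor in stage 12 stamens, and read 29.0, 24.9 and 8.22 in stage 15 stamens and 25.6, 19.9 and 24.7 in pollen. CES was below the floor on all of these arrays. The 2 meiosis genes with a probe set, ATSPO11-1 and SDS, did not pass the filter on low values.

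Of 20 other male germline genes listed, 4 had a probe set that pairs with 1 gene, and all 4 passed the filter, so the list is represented by few genes. TET11 and TET12, tetraspanin membrane proteins of sperm cells, and AT1G08170, a gene of the H2B list entered as a germline histone, were called higher in pollen than in stage 15 stamens, as MGH3 was (18.8% of all probe sets). The fourth, AT2G35050, was called lower (30.5%). TET11 read 439.0, 379.5 and 334.6 in pollen, against 35.7, 18.5 and 14.7 in stage 15 stamens, a log2 difference of 3.57 (adjusted p = 5.36e-26). TET12 was 1.53 higher in pollen and AT1G08170 2.20 higher, while AT2G35050 was lower by -4.20, with 16.5 ± 7.79 in pollen, against 485.0 ± 8.56 in stage 15 stamens. Against stage 12 stamens TET12 was at -0.07, without a call and with a sign that turned under both other scalings, while TET11 was at 0.86 and AT1G08170 at 1.08, beside 0.68 for MGH3.

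From stage 12 to stage 15 the same 3 genes were lower in stamens, as MGH3 was. The log2 differences were -2.71 for TET11, -1.59 for TET12 and -1.12 for AT1G08170, against -2.17 for MGH3, and AT2G35050 was higher by 1.26. Across the alternative settings 2 or 3 list genes were called lower. In the main setting 12% of all probe sets were called lower between these stamens and 12% higher. At stage 12 TET11, TET12 and AT1G08170 were called higher in stamens than in sepals, petals and carpels alike, 3 of 4 list genes in each comparison, where 14.4%, 13.5% and 14.6% of all probe sets were called higher. TET12 and AT1G08170 were above the floor on all arrays of stage 12 stamens and pollen and below it on all arrays of the other groups. Both passed the filter on low values only through stage 12 stamens and pollen. Their calls against groups below the floor, stage 15 stamens included, were therefore largely set in advance and add no support.

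TET11 differed from MGH3 in its timing in whole flowers. It averaged 148.5 in stage 10/11 flowers, against 25.3 in stage 9 flowers, a log2 difference of 2.12 (adjusted p = 7.63e-15), at stages where MGH3 was below the floor. In stage 12 flowers TET11 averaged 81.5, a log2 difference of -0.80 from stage 10/11 that was not called, while MGH3 was higher by 2.14. In the mutants TET11 was lower than wild type in lfy-12 (-2.01), ap3-6 (-2.27) and ag-12 (-2.31), as MGH3 was. In ufo-1 flowers TET11 was above the floor, at 39.3, 33.1 and 35.1, against 84.5, 63.3 and 96.7 in wild type. This log2 difference of -0.96 was not called, while MGH3 was below the floor in the same ufo-1 flowers, at -2.45. It averaged 100.4 in ap1-15 flowers and 67.4 in ap2-6 flowers, against 81.5 in wild type, with log2 differences of 0.28 and -0.23 that were not called, where MGH3 was called lower.

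**Figure D2:**
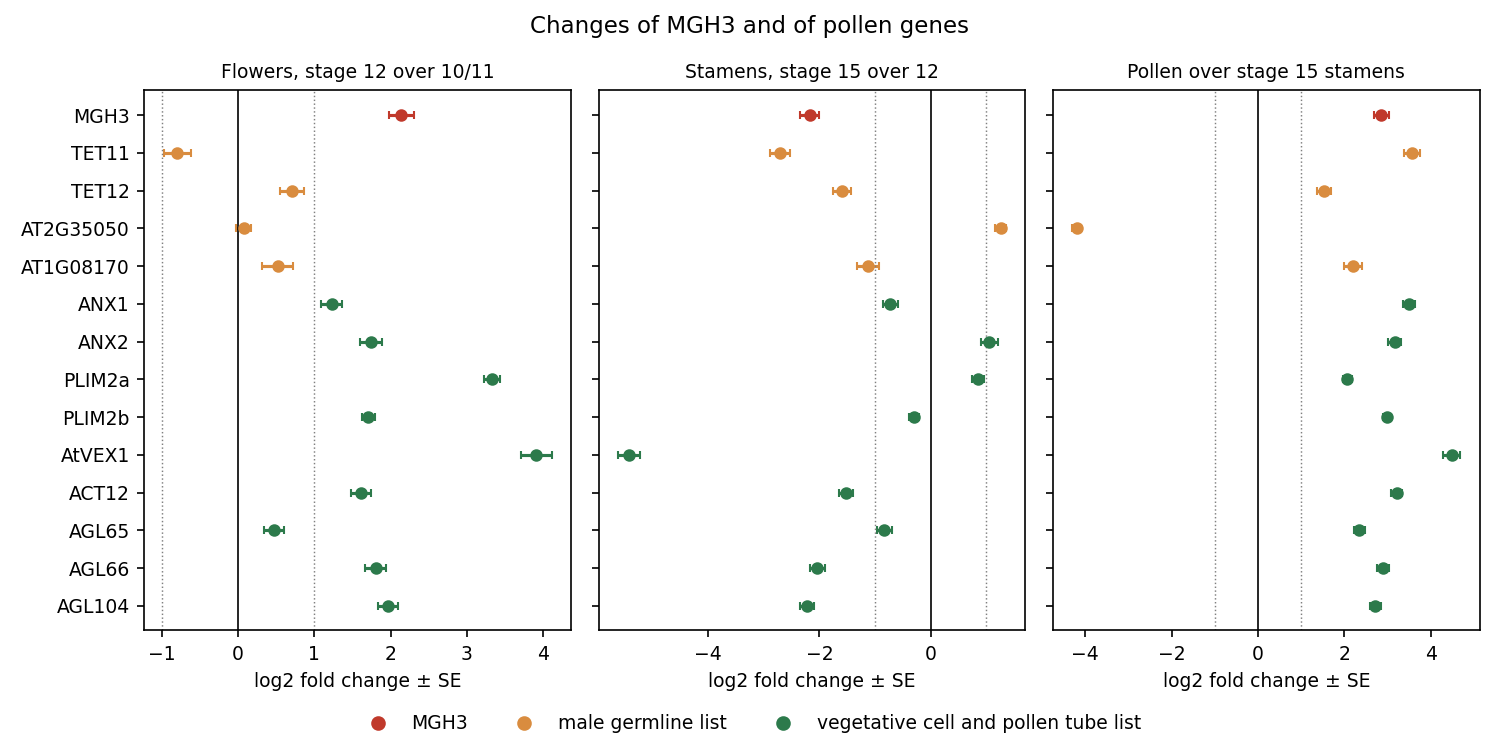
Log2 fold changes with their SE for MGH3, 4 other genes of the male germline list and 9 vegetative cell and pollen tube genes. The panels are stage 12 over stage 10/11 flowers, stage 15 over stage 12 stamens and pollen over stage 15 stamens. Dotted lines mark 2-fold. MGH3 lies at 2.14, -2.17 and 2.86, and in the middle panel the vegetative genes spread from -5.42 for AtVEX1 to 1.05 for ANX2.

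The vegetative cell and pollen tube list had 9 measured genes of 31, none of them entered as a germline gene. All 9 were called higher in stage 12 stamens than in sepals, petals and carpels, with a median log2 difference of 4.69 against carpels beside -0.30 over all probe sets tested. ANX1 passed the filter on low values only through pollen and the stamens. Its calls against these organs, where it was below the floor, were therefore largely set in advance and add no support. The shares of all probe sets called higher there were 14.4%, 13.5% and 14.6%. In stage 12 flowers 8 of 9 were called higher than at stage 10/11 (median 1.74, and -0.04 over all probe sets). At this step 4.9% of all probe sets were called higher. Of the 8, ANX1 was below the floor on all arrays of both stages, so its call carries no fold. Between the stamen stages the 9 genes divided. AtVEX1 (-5.42), the pollen MADS-box factors AGL104 (-2.22) and AGL66 (-2.03), and the pollen actin ACT12 (-1.53) were lower in stage 15 stamens, as MGH3 was, and ANX2, a receptor-like kinase that keeps the pollen tube intact, was higher by 1.05. The list median was -0.83, against 0.01 over all probe sets. Between pollen and stage 15 stamens all 9 were called higher, as were 18.8% of all probe sets. The log2 differences were 2.07 for PLIM2a, an actin-binding protein, to 4.48 for AtVEX1. After quantile normalization PLIM2a was at 0.23 and not called, so the count was 8 to 9 across the alternative settings. Against stage 12 stamens 6 of 9 were called higher (14.3% of all probe sets), and 3 to 8 across the alternative settings. Of the others, AGL66 and AGL104 were higher by 0.86 and 0.50 without a call, while AtVEX1 went the other way. AtVEX1 was at -0.93 in the deposited scaling, -1.61 after quantile normalization and -0.08 with 75th-percentile scaling.

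In carpels, 2 genes of this list were called higher at stage 15. PLIM2a read 146.3, 131.8 and 130.1 in stage 15 carpels, against 12.2, 15.3 and 7.87 in stage 12 carpels, at least 6.01-fold higher (log2 difference 2.68, adjusted p = 4.02e-29). ANX2 averaged 24.8 in stage 15 carpels, with 2 of 3 arrays above the floor, against 4.22 in stage 12 carpels (log2 difference 1.21). Of all probe sets, 3.33% were called higher in this comparison. The count of 2 called genes of 9 ranged between 1 and 5 across the settings. MGH3 read 9.53, 6.27 and 1.84 in the same stage 15 carpels, all below the floor. The summed signal of the list was 280 to 316 in stage 15 carpels, against 98.9 to 102.5 in stage 12 carpels and 30443 to 33788 in pollen. An MGH3 signal at the same small share of its own pollen level would also lie below the floor, so these arrays do not show whether MGH3 was absent from the stage 15 carpels. Neither the PLIM2a nor the ANX2 signal was particular to carpels. PLIM2a read 121.1, 108.4 and 113.7 in stage 15 sepals and 111.2, 112.5 and 118.3 in stage 15 petals. At stage 12 it read 42.9, 46.6 and 45.7 in sepals and 76.0, 83.7 and 76.5 in petals. ANX2 read 22.7, 26.6 and 28.7 in stage 15 sepals and 22.9, 22.5 and 22.9 in stage 15 petals.

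In the mutants 8 of these 9 genes were called lower than wild type in lfy-12, ap2-6, ap3-6, ag-12 and ufo-1 flowers, 5 in ap1-15 flowers and 0 in clv3-7 flowers. Over all probe sets, 7.35%, 4.97%, 6.21%, 6.02%, 4.24%, 3.51% and 0.272% were called lower in these 7 mutants in that order. ANX1 was below the floor on all arrays of the 5 mutants with 8 calls and of wild-type flowers, so its calls carry no fold. The counts for ap2-6 and ap1-15 ranged from 5 to 8 and from 3 to 6 across the alternative settings. In clv3-7 flowers the largest of the 9 differences was 0.36, for PLIM2b, and 0 of 9 had an adjusted p below 0.05 with a 2-fold change. The summed signal of the list was 456 to 496 in ap1-15 and 312 to 339 in ap2-6 flowers, against 1032 to 1144 in wild-type flowers.

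Few histone H3 genes could be compared with MGH3. Of 13 other H3 genes listed, 4 had a probe set that pairs with 1 gene, and 3 of these (AT1G13370, AT1G75600 and AT5G12910) were below the floor on all 66 arrays. The fourth, HTR12, encodes the centromeric H3 found in dividing cells, and it ran differently. HTR12 averaged 94.5, 63.0, 44.2 and 16.7 in flowers of stages 9, 10/11, 12 and 15. It was below the floor on all stamen arrays of both stages, where MGH3 was high. Stage 12 stamens were at least 3.27-fold lower in HTR12 than stage 12 carpels, which read 64.5, 79.0 and 78.9 (log2 difference -1.83, adjusted p = 1.42e-13). In pollen HTR12 read 3.96, 30.9 and 12.7, with 1 of 3 arrays above the floor. The multigene H3 families of replicating cells have no probe set of their own here and were not analysed.

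Of 35 other histone genes listed 12 were measured, and in pollen they separated into higher and lower groups. Against stage 15 stamens 4 were called higher: AT5G02570 (log2 difference 3.05), AT3G09480 (2.44), AT1G08170 (2.20) and AT2G37470 (2.12), all entered in the H2B list, beside 2.86 for MGH3. Of these, AT1G08170 passed the filter on low values only through stage 12 stamens and pollen. Its call against stage 15 stamens was therefore largely set in advance and adds no support. Another 6 were called lower, and HTB2 and HIS1-3 were not called. Calls were common in this comparison, at 18.8% higher and 30.5% lower over all probe sets. The lower genes were AT2G30620 (-4.56) and AT1G06760 (-3.15), both entered as linker histones H1, and the H2B genes HTB11 (-3.30), AT2G28720 (-2.77), HTB4 (-2.03) and HTB1 (-1.35). None of the 10 called genes changed its direction under the other scalings of the pollen arrays, but calls moved. HTB1 was at -0.76 and not called with 75th-percentile scaling, and HTB2, at 0.63 in the deposited scaling, was at 1.21 after quantile normalization and at 1.35 with 75th-percentile scaling. The counts were 4 to 5 higher and 5 to 6 lower across the settings. AT2G30620 read 9.98, 15.2 and 11.5 in pollen, against 555.9, 544.3 and 521.4 in stage 15 stamens, at least 23.9-fold lower. These H2B genes are related in sequence, and the annotation names 1 gene for each probe set.

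AT5G02570 had the same shape as MGH3. It read 1892, 1647 and 1894 in pollen, 537, 598 and 509 in stage 12 stamens, and 199, 207 and 218 in stage 15 stamens, while carpels of stage 12 were below the floor. Between the stamen stages it was lower by -1.35, against -2.17 for MGH3, and between pollen and stage 12 stamens it was higher by 1.70, against 0.68.

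**Figure D3:**
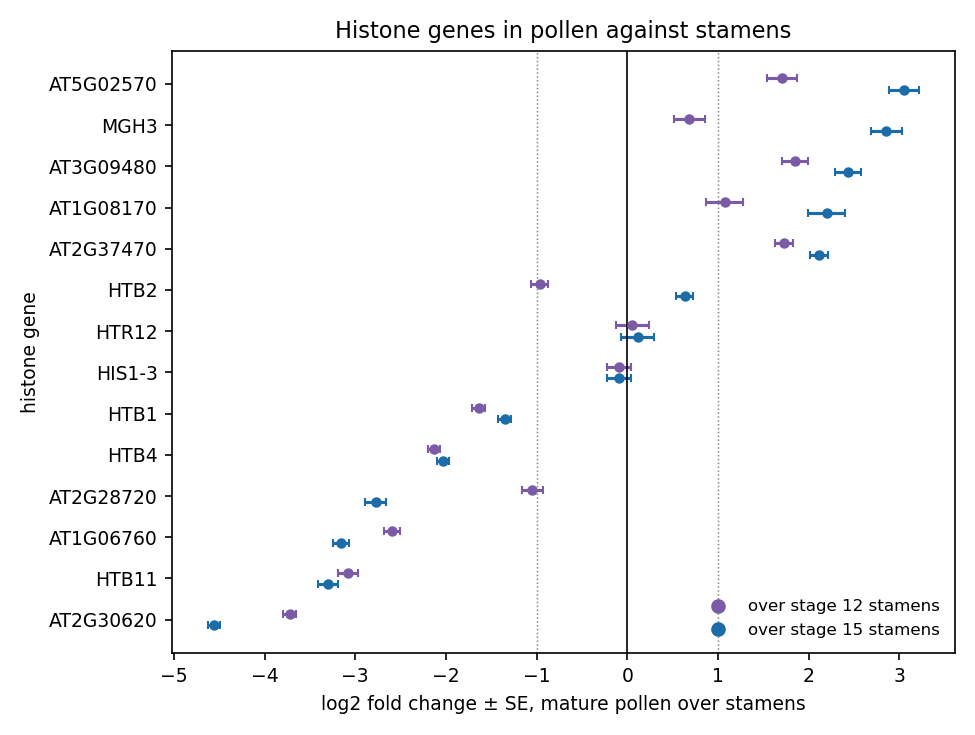
Log2 fold changes with their SE of MGH3, HTR12 and 12 other histone genes in mature pollen over stage 12 stamens and over stage 15 stamens; dotted lines mark 2-fold. MGH3 lies with 4 H2B genes on the higher side, at 0.68 and 2.86, and 6 histone genes lie past the 2-fold line on the lower side, down to -4.56 for AT2G30620. Of the higher H2B genes, AT1G08170 passed the filter on low values only through stage 12 stamens and pollen.

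Genes of histone deposition and DNA replication had 3 measured members of 16. PRL, a replication helicase subunit, was higher in pollen than in stage 15 stamens by 2.17 and higher than in stage 12 stamens by 1.67. Of all probe sets, 18.8% and 14.3% were called higher in these comparisons. ASF1B, a histone chaperone, was higher in pollen than in stage 15 stamens by 1.65, with 77.0 ± 5.51 in pollen, against 17.0 ± 4.21 in those stamens. Against stage 12 stamens ASF1B was at 0.41 and not called in the deposited scaling, and at 1.20 with 75th-percentile scaling. SGA2, the related chaperone, was at 0.72 and not called in the deposited scaling, but at 1.11 after quantile normalization and 1.54 with 75th-percentile scaling, which passed 2-fold. Among wild-type flowers of stated stage PRL and ASF1B were highest at stage 9, at 390.6 ± 21.4 and 193.2 ± 23.5, a stage at which MGH3 was below the floor.

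The genes most like MGH3 were picked by the correlation of their group means of log2(signal + 11.3) with those of MGH3 over the 22 groups. Among 9674 other genes with a probe set that pairs with 1 gene, 245 had r above 0.9 and 693 above 0.8. These groups share arrays, scaling and the strong contrast of pollen and stamens with the rest, so a high r describes that contrast. The first were AGL104 (r = 0.993) and AGL66 (r = 0.993), factors of the pollen MADS-box complexes, followed by AT1G62450 (0.993), AT1G16360 (0.990) and AT5G02570 (0.989). AT1G12070 (0.988), AT5G36260 (0.988), ACT12 (0.988), AT3G52620 (0.986) and AT5G51030 (0.986) completed the first 10. In the deposited scaling all 10 stood in the order pollen, stage 12 stamens, stage 15 stamens, as MGH3 did. The genes were picked by their likeness to MGH3 over these same groups. Their shared order was therefore largely set by the choice and adds no support. Their ratio of stage 12 to stage 15 stamens was 2.63 to 5.08, against 4.80 for MGH3, and their ratio of pollen to stage 12 stamens 1.44 to 3.30, against 1.64. The size of the pollen step follows the scaling. Between pollen and stage 12 stamens the log2 difference of AGL104 was 0.50 as deposited and that of AGL66 0.86. They were 0.22 and 0.47 after quantile normalization, and 1.35 and 1.72 with 75th-percentile scaling.

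The likeness did not rest on pollen alone, since 9 of the 10 genes were also among the first 10 over the 21 other groups. With ranks in place of values 4 of the 10 were, and ranks give weight to the order of signals below the floor. The male germline genes came later: AT1G08170 had r = 0.93 at place 119, TET12 0.92 at place 151 and TET11 0.73 at place 988, while AT2G35050 had -0.54. The vegetative cell and pollen tube list had 3 genes among the first 10, AGL104, AGL66 and ACT12. Its other 6 lay between 0.94 for ANX1 and 0.84 for AtVEX1, and HTR12 had -0.37.

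**Figure D4:**
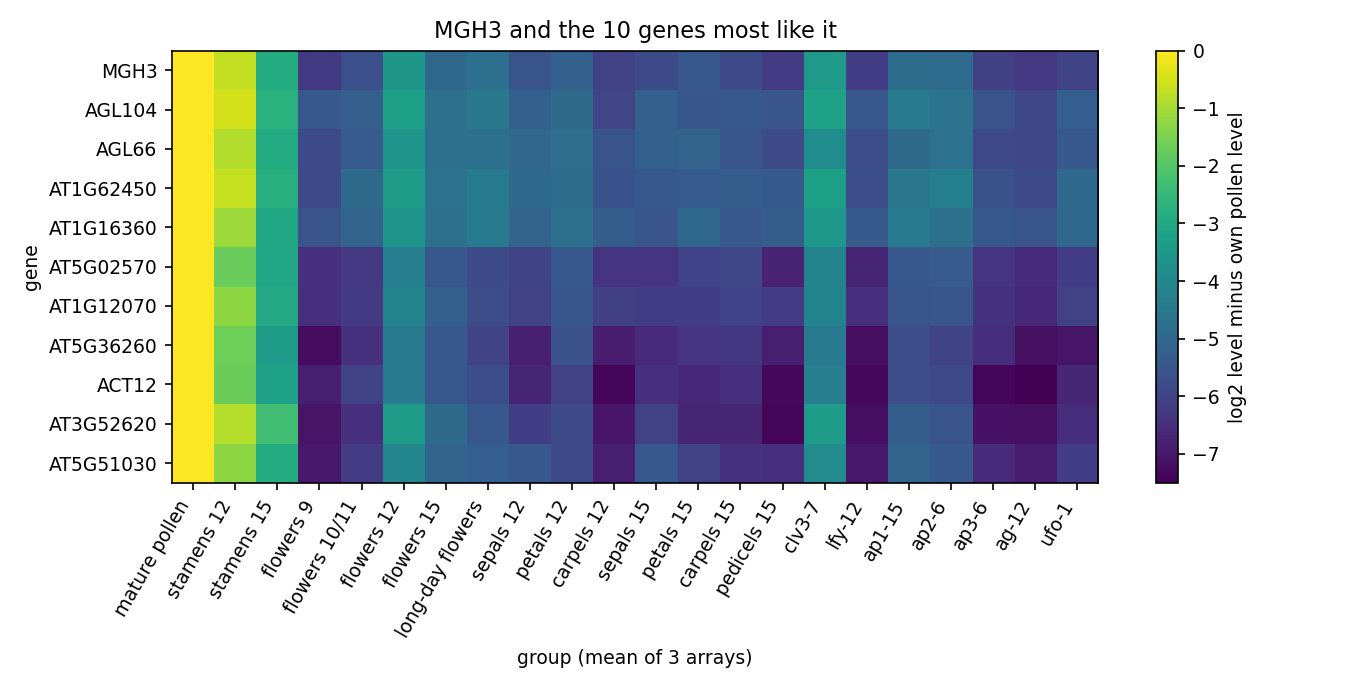
Group means of log2(signal + 11.3) for MGH3 and the 10 genes most like it in the 22 groups, each shown as its difference from the same gene's level in pollen (colour scale, log2 units). In every gene pollen is highest, followed by stage 12 and stage 15 stamens, and stage 12 flowers and clv3-7 flowers stand above the other whole flowers. The 10 genes were picked for their likeness to MGH3 over these groups, which largely sets this shared pattern.

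The genes on either side of MGH3 on the chromosome did not share its pattern. AT1G19880 was above the floor on every array of every group, with group means from 34.3 in stage 15 stamens to 110.2 in ap2-6 flowers and 45.7 ± 5.21 in pollen. AT1G19900 was below the floor on all arrays but 1 of the pollen arrays, which read 32.8.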

How the data were processed

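Total RNA from flowers, floral organs and pollen was measured on 66 ATH1 arrays, 3 for each of 22 groups taken from the labels. The deposited values are signal intensities from MAS5, per the submitters' processing notes, whose version is not given in the sources used here. The deposited intensities are linear and appear scaled per array. Depth does not apply, and 3 arrays a group limit the precision. No unused sample columns and 0 pairs of identical arrays were found.

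A floor of 22.6 was set at the 40th percentile of the whole table, and 0.5 of this floor, 11.3, served as pseudocount. The table had 22810 probe sets, of which 64 were controls and 5100 did not have all arrays of any group above the floor, which left 17646. The log2(signal + pseudocount) values of all 66 arrays entered a single model (limma 3.58.1 under R 4.3.3) that had a mean for every group, eBayes with a trend and Benjamini-Hochberg adjustment over all probe sets tested, in 30 comparisons. Called means adjusted p below 0.05 and at least 2-fold. The fit was tested on simulated data. Probe sets were named from the platform annotation joined to the gene table of RefSeq TAIR10.1 by gene number, which gave 13513 probe sets with 1 gene, 503 with several and 8730 with none. No sequences were used.

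The gene, the gene lists and the tests were chosen with earlier results of these data known. Named were MGH3, every measured germline and H3 gene, and the 10 genes most like MGH3. Of the other lists, the called genes with the largest changes were named, up to 4 a comparison. AT5G02570, PLIM2b, SHT, ATA27, SGA2, ANX1, HIS1-3, HTB2 and both neighbours were chosen after their values were seen or to complete a count. Where a gene had several probe sets, the brightest over all arrays was taken. Alternatives were another pseudocount or none, no filter, quantile or 75th-percentile scaling, robust eBayes, only the arrays compared, the replicate letter as a block, no pollen arrays (added after seeing the data) and leaving out each array.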

Additional observations from a re-analysis of the deposited data

Results flagged for a closer look

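The change of MGH3 from stage 12 to stage 15 was compared between organs by a test of the difference itself. The change in stamens minus that in sepals was -1.95 on the log2(signal + 11.3) scale (SE 0.24, adjusted p = 2.98e-10), minus that in petals -1.87 (adjusted p = 1.20e-09) and minus that in carpels -2.44 (adjusted p = 2.88e-13), in limma contrasts adjusted over all 17646 probe sets. MGH3 was lower in all 3 stage 15 stamen arrays than in all 3 stage 12 stamen arrays. In the other 3 organs it was below the floor at both stages, so these organs could not have shown a fall. The differences therefore mostly restate the fall in stamens.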

How the results depend on the processing

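Of 30 comparisons of MGH3, 25 had the same call in every one of 9 alternative settings that gave them a value, among them 19 of the 21 called. The setting without pollen arrays covers 28 comparisons. With no pseudocount stage 10/11 against stage 9 flowers (2.52) and ag-12 against ap3-6 flowers (-1.49) became called, both from values below the floor. The ap1-15 and ap2-6 comparisons with ap3-6 were no longer called with the pseudocount equal to the floor (0.79 and 0.78) or after quantile normalization (0.95 and 0.99). Pollen against stage 12 stamens became called, at 1.54, with 75th-percentile scaling. Leaving out single arrays changed the sign of clv3-7 against wild type (-0.01 to 0.17, adjusted p up to 0.998). It became -0.0014 without the first wild-type array and -0.013 without the second clv3-7 array. Of the 10 genes most like MGH3, 4 remained with Spearman correlation. Besides the pollen shifts, quantile normalization moved the median of all probe sets by -0.14 in ap1-15 flowers and 0.13 in stage 15 petals. Arrays with the same replicate letter did not pair (correlations of deviations -0.139 to 0.147, 0 of 30 comparisons with all above 0.1). The replicate block changed no call, with 4.86 for stage 12 stamens over sepals as without it. Levels under the floor carry no order.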

Other observations

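The long-day flowers, whose stage is not stated, held MGH3 at the floor (22.8 ± 1.62, SD, n = 3) beside high signals of a germline and a tapetum gene. TET11, the sperm tetraspanin, averaged 148.5 ± 4.64 in long-day flowers, 148.5 ± 15.5 in stage 10/11 flowers and 81.5 ± 16.9 in stage 12 flowers. SHT, the spermidine conjugate enzyme, averaged 443.9 ± 13.4 in long-day flowers, 625.6 ± 35.2 in stage 10/11 flowers and 34.9 ± 2.37 in stage 12 flowers. AT1G08170 and TET12 were below the floor on all 3 long-day arrays. These values were not tested, and the 2 genes were chosen after their values were seen.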
